A study of Homo sapiens with 15 samples.

Results

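PC3, a human prostate cancer line grown from a bone metastasis, was compared after 24 h with 8 µM MYCi975, a compound designed as an inhibitor of MYC, and after 24 h with DMSO, its solvent. The comparison used 6 of the 15 libraries of the study, 3 per group, chosen by line and treatment as labelled. All 13751 genes of the deposited PC3 table were tested, and the description turns on 42 lists of prostate, epithelial, adhesion, matrix, secreted and signalling genes. Those lists name 1880 genes, of which 1263 were in the table, and values for the others were not analysed here. The study also treated P493-6, a B cell line that overexpresses MYC, with DMSO, with 6 µM MYCi975 or with tetracycline, which turns its introduced MYC gene off; the first pair of groups serves below for 1 comparison. All PC3 cells, controls included, carry the line's own lesions: it is known to lack working p53 and alpha-catenin, and to grow without androgen. Separate cultures are not stated for the 3 libraries of either group, and p-values then measure only the spread among libraries, which can be technical.

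Epithelial cells of the prostate are held together by cadherin and claudin junctions and rest on a laminin basement membrane to which integrins and hemidesmosomes bind them. Their identity is set by transcription factors such as HOXB13, FOXA1 and GATA2, which help switch on secretory genes. Prostate cancers that spread to bone exchange secreted ligands with their surroundings, among them members of the EGF, FGF, IGF, TGF-beta, BMP and WNT families, and proteases that free or destroy those ligands. MYC binds DNA with MAX at a short sequence called the E-box and drives growth genes, and it also restrains other genes through partner proteins.

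Depth was 13174502 to 15926008 reads per library, so 1 CPM (1 read of a gene per 1000000 counted reads of its library) stood for 13.2 to 15.9 reads. Replicate libraries correlated with r of 0.996 to 0.997 across genes, and the first principal component, with 81.4% of the variance, separated the 3 DMSO from the 3 MYCi975 libraries. No library stood apart from its group. MYC mRNA was not lowered, and its mean was higher with MYCi975, at 374 ± 13.6 CPM against 304 ± 4.96 CPM with DMSO (0.30). Group values are given as mean ± SD of the CPM of 3 libraries. Log2 fold changes are MYCi975 minus DMSO on log2(CPM + 1), which understates the change of low genes, and adjusted p-values are from limma. A gene "rose" or "fell" where the Benjamini-Hochberg adjusted p over all genes was below 0.05. CPM measures a gene against its whole library, and total RNA per cell was not measured. In such bulk samples fewer cells of a type and less RNA per cell cannot be told apart. Levels of different genes are not compared, since CPM is not corrected for gene length.

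The label was checked against cell type markers. Of 8 epithelial markers 7 were in the table, among them CDH1, EPCAM, KRT8, KRT18, KRT19 and CLDN4, with a summed level of 1564 to 1606 CPM in DMSO and 1283 to 1379 CPM with MYCi975. Of 9 luminal prostate markers 4 were in the table, among them TMPRSS2 and HOXB13, with sums of 179 to 196 and 98.2 to 102 CPM. KLK2, KLK3 (which encodes PSA), FOLH1, ACPP and MSMB were not analysed here. None of 6 neuroendocrine markers was in the table, and of 8 markers of B and blood cells, the type of the other line, only CD74 was, at 1.75 to 4.27 CPM in DMSO and 1.25 to 2.05 CPM with MYCi975. Of 6 fibroblast markers COL1A1 and COL3A1 were listed (sums of 65.7 to 67.8 and 56.8 to 58.9 CPM) and of 4 endothelial markers PECAM1 and KDR (162 to 167 and 126 to 127 CPM). Their part in the results below was not tested.

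Of all genes tested 59.2% were called, 29% as rises and 30.1% as falls, and the groups did not overlap for 61.9%. Against that background, 850 of the 1263 list members were called (67.3%), 508 upward and 342 downward, and 413 did not pass. The median log2 fold change was 0.07 over the members and 0.00 over all genes. At least 2-fold rises were seen in 65 members and at least 2-fold falls in 27, against 2.29% and 1.4% of all genes. Members were chosen with earlier results of these data known, so these shares do not test whether the lists differ from all genes. With calls this frequent, the sizes of the changes are given beside them.

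Among list members with a mean of at least 5 CPM over the 6 libraries, RGS4, RND3 and ERRFI1 were 3 of the 4 largest rises, and they encode inhibitors of signalling. RGS4, which shortens the active state of G proteins, was at 17.5, 18.8 and 17.9 CPM with DMSO and 122, 117 and 108 CPM with MYCi975. RND3, a small GTPase that opposes RhoA and loosens actin stress fibres, was at 246, 249 and 255 CPM with DMSO and 1574, 1482 and 1432 CPM with MYCi975. ERRFI1, an inhibitor that binds the EGF receptor kinase, was at 300.4, 313 and 311 CPM with DMSO and 1278, 1269.8 and 1249 CPM with MYCi975. In all 3 genes every MYCi975 library lay far above every DMSO library. The log2 fold changes were 2.61 (SE 0.058, adjusted p = 6.36e-61) for RGS4, 2.58 (SE 0.029, adjusted p = 2.95e-80) for RND3 and 2.03 (SE 0.028, adjusted p = 1.13e-78) for ERRFI1. RND3 is annotated on hg38 at chromosome 2, 150468195 to 150539011 on the minus strand, and ERRFI1 at chromosome 1, 8004404 to 8026308 on the minus strand.

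The remaining 9 of the 12 largest rises at that level were of smaller size or in genes with few reads. ADM2, a peptide of the calcitonin family, went from 0.991 ± 0.186 to 10.3 ± 0.345 CPM (2.50), and its DMSO libraries sat near the lower limit of the table. PODXL, a sialomucin that keeps membranes apart, went from 195 ± 5.13 to 574 ± 6.56 CPM (1.56), and FERMT2, the integrin activator kindlin-2, from 289.6 ± 16.6 to 784 ± 4.57 CPM (1.44). MERTK, a receptor for ligands on dying cells, went from 5.02 ± 0.562 to 20.7 ± 2.02 CPM (1.85). The lipid-sensing nuclear receptor PPARA rose by 1.66, the kinase RPS6KA2 by 1.63, the cytokine IL24 by 1.51, the ligand PDGFA by 1.40 and the bone ligand BMP2 by 1.39. In DMSO, PPARA was at 14.3 CPM on average and the other 4 were below 5 CPM.

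At the same level, the largest falls were in PHACTR3, which binds actin and protein phosphatase 1, and MAP2K6, the kinase that activates p38. PHACTR3 was at 94.4, 95.1 and 93.97 CPM with DMSO and 17.2, 13.9 and 14.2 CPM with MYCi975. MAP2K6 was at 15.7, 15.4 and 13.1 CPM with DMSO and 1.40, 1.77 and 2.19 CPM with MYCi975. In PCDH18, a protocadherin, the 3 DMSO libraries were at 13.2, 13.2 and 12.98 CPM and the 3 MYCi975 libraries at 2.73, 2.55 and 1.98 CPM. The gap between the groups in each of the 3 was far wider than the spread inside them, with log2 fold changes of −2.57 (SE 0.064, adjusted p = 7.98e-54), −2.50 (SE 0.13, adjusted p = 2.76e-31) and −2.05 (SE 0.13, adjusted p = 1.94e-26). ADGRF1, an adhesion receptor also called GPR110, fell from 51.2 ± 2.63 to 12.7 ± 1.82 CPM (−1.93), HAS2, which makes hyaluronan, from 21.5 ± 2.04 to 6.55 ± 0.113 CPM (−1.57), and the Eph receptor EPHB3 from 40.5 ± 4.19 to 13.4 ± 0.471 CPM (−1.52). PDGFRA, the receptor for PDGFA, fell by 1.42, INHBB, a subunit of activin B and inhibin B, by 1.39, and ID2, which blocks helix-loop-helix factors, by 1.32. NR2F2 (COUP-TFII, an orphan nuclear receptor) fell by 1.31 and the membrane oestrogen receptor GPER1 by 1.25. PDGFA and PDGFRA thus moved in opposite directions.

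**Figure D1:**
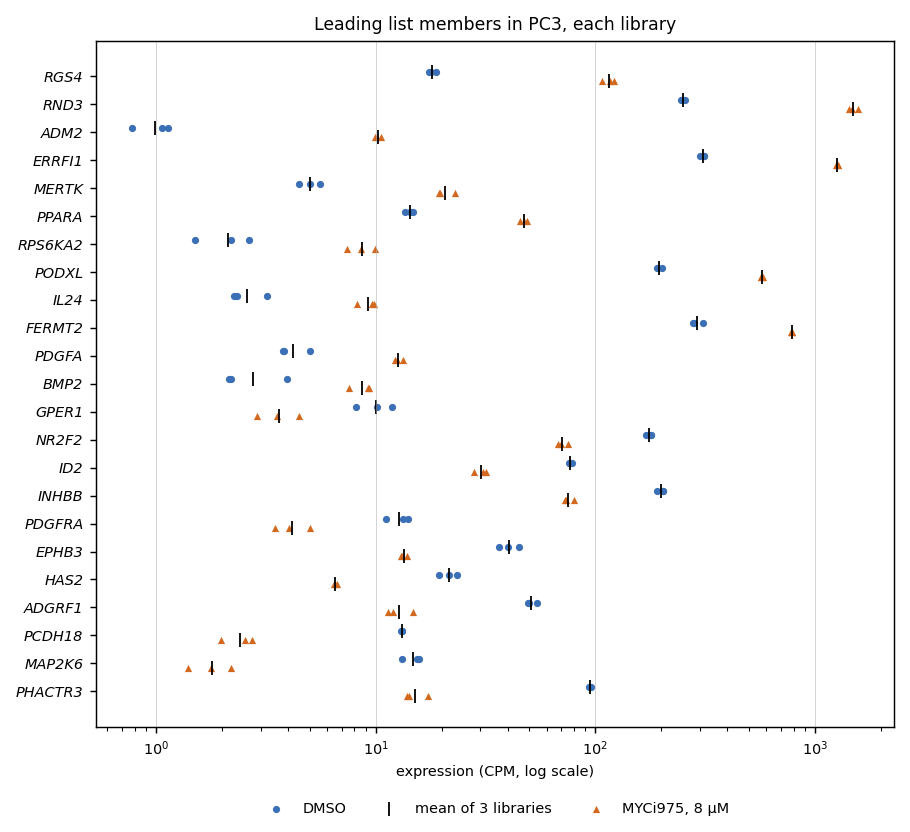
Expression of 23 of the 24 leading list members in each PC3 library (CPM, log scale), with circles for 3 DMSO and triangles for 3 MYCi975 libraries and a bar at each group mean. The genes were chosen for the size of their change and for groups that do not overlap; RND3 lies at 246 to 255 CPM in DMSO and 1432 to 1574 CPM with MYCi975.

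List medians lay on both sides of 0. Among those with at least 10 members tested, the highest median was that of protease inhibitors (0.54), followed by the insulin and IGF family (0.42), and the lowest was that of adhesion and class C G protein-coupled receptors (−0.32), followed by Eph receptors and ephrins (−0.22). WNT, PI3K and Hedgehog lists had medians within 0.02 of 0 while 43.8% to 67.5% of their members were called. These lists held rises and falls in near equal number. The share called in a list is to be read against the 59.2% of all genes, and a share near it is not a result about the list. Among such shares were those of junctions (60.5%), mesenchymal genes (60%), cadherins (60%), proteases (60%) and WNT genes (59.5%). Those of regulators of small GTPases (61.8%), interleukins (58.7%) and G protein genes (57.4%) were near it too.

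**Figure D2:**
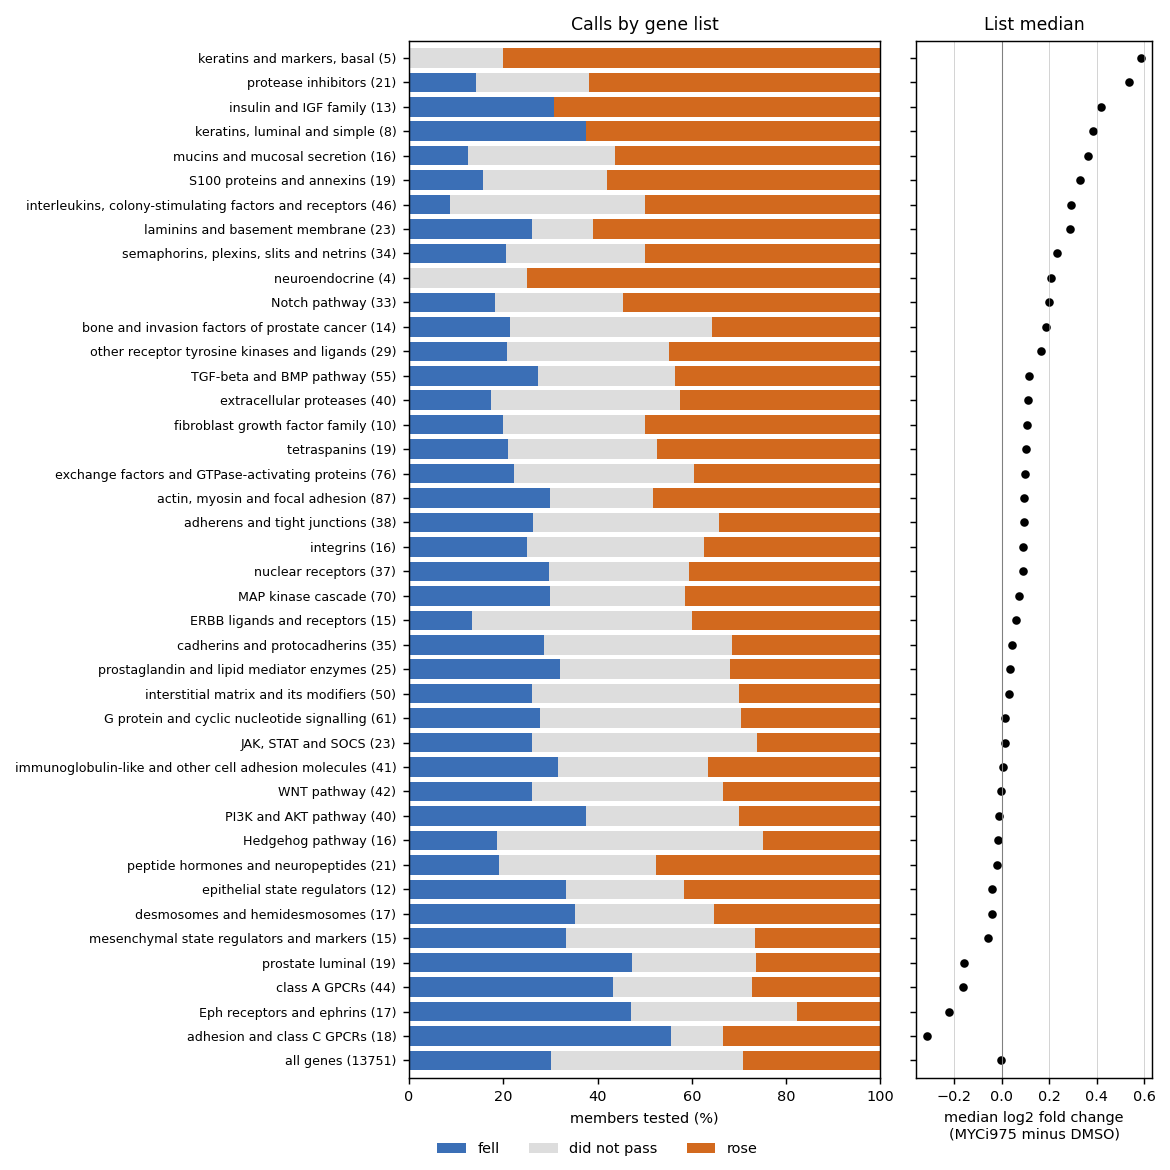
Share of tested members of each of 41 of the 42 lists that fell, did not pass or rose (left, % of members, number tested in parentheses) and the median log2 fold change of the list (right), with all 13751 genes in the bottom bar. The bar of all genes is split 30.1% fell and 29% rose, and the lists range in median from −0.32 to 0.59.

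HOXB13 and GATA2, transcription factors of the prostate lineage, fell. Of 19 tested genes of the luminal prostate list, 9 fell, 5 rose and 5 did not pass, with a median of −0.16. HOXB13, a homeobox factor of prostate epithelium, was at 169, 155 and 154 CPM with DMSO and 84.00, 80.3 and 78.04 CPM with MYCi975. GATA2, a zinc finger factor of prostate epithelium, was at 14.6, 12.8 and 14.95 CPM with DMSO and 6.34, 7.44 and 6.86 CPM with MYCi975. Neither gene's groups overlapped, and the log2 fold changes were −0.97 (SE 0.043, adjusted p = 1.63e-37) for HOXB13 and −0.94 (SE 0.11, adjusted p = 1.06e-12) for GATA2. FKBP5, a co-chaperone switched on by steroid hormones, went from 55.2 ± 1.78 to 30.2 ± 1.43 CPM (−0.85), and the prostate transporter SLC45A3 from 13.5 ± 0.162 to 8.46 ± 0.397 CPM (−0.61). The 5 rises of that list were smaller. They were in STEAP2 (0.55), STEAP1 (0.39), SRD5A1 (0.38), ZBTB10 (0.35) and NR3C1. NR3C1, the glucocorticoid receptor, went from 53.9 ± 0.401 to 64.05 ± 5.22 CPM (0.24).

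Regulators of epithelial and mesenchymal state split by gene. Of 15 mesenchymal regulators and markers 5 fell and 4 rose. SOX9, a factor of prostate bud and stem cell programs, was at 348, 338 and 348 CPM with DMSO and 166, 164 and 187 CPM with MYCi975. SOX4, a related factor, went from 165 ± 2.29 to 84.4 ± 0.802 CPM (−0.95), and TBX3 from 146 ± 4.36 to 106 ± 2.95 CPM (−0.46). The groups of SOX9 did not overlap (−0.996, SE 0.037, adjusted p = 9.33e-36). The ETS factor ETS2 (0.64) and the filament gene VIM (0.25), of the same list, rose. Of 12 epithelial regulators 5 rose and 4 fell: the protease inhibitor SPINT1 (0.58), the exchange factor ARHGEF5 (0.56) and ELF3 (0.31) rose, and the membrane protein gene TMC5 fell (−0.75). None of the 6 defining neuroendocrine markers was in the table. Of 4 other genes listed with that state 3 rose: ENO2 (0.31), SCG5 (1.15, from 1.63 ± 0.945 to 4.56 ± 0.0970 CPM) and REST, which represses neuronal and neuroendocrine genes (0.10, adjusted p = 0.0184). The call of REST was lost without DMSO replicate 3 (adjusted p = 0.0558), without MYCi975 replicate 2 (0.107) and with limma without trend and robust (0.0904).

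Keratins, the filaments of epithelial cells, changed in composition. All 8 tested genes of the luminal and simple keratin list were called, 5 upward and 3 downward (median 0.38). KRT81 was at 1133, 1042 and 1026 CPM with DMSO and 2049, 2019 and 2026 CPM with MYCi975. The classic pair partner of luminal cells, KRT18, was at 400.5, 385 and 388 CPM with DMSO and 289.8, 280.2 and 297 CPM with MYCi975, and KRT19 went from 627 ± 12.3 to 518 ± 23.4 CPM. KRT81 (0.93) and KRT7 (0.72) rose, and KRT18 (−0.44) and KRT19 (−0.27) fell, with no overlap between groups in any of the 4. KRT86 rose too (0.81), but KRT81 and KRT86 are near-identical hair keratins whose reads can be split or dropped in counting, and both values are uncertain. KRT8, the partner of KRT18, moved by −0.08 (adjusted p = 0.0347), with its highest MYCi975 library just under its lowest DMSO library. The call of KRT8 was lost without DMSO replicate 2 (adjusted p = 0.055), DMSO replicate 3 (0.167) or MYCi975 replicate 2 (0.403). It was also lost with DESeq2 (adjusted p = 0.144), edgeR (0.0872), TMM scaling (0.0636), median centring (0.0565) and limma without trend and robust (0.264).

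Junction genes moved in both directions, as did all genes. Of 38 adherens and tight junction genes 13 rose, 10 fell and 15 did not pass (median 0.09). Their share called, 60.5%, was near the 59.2% of all genes. CLDN1, a sealing claudin, was at 6.72, 5.97 and 4.63 CPM with DMSO and 15.5, 14.6 and 16.05 CPM with MYCi975. TJP1, the scaffold ZO-1, was at 209.8, 209 and 206 CPM with DMSO and 313, 327 and 317 CPM with MYCi975. Both rose (1.29 and 0.61), as did the polarity scaffold PATJ (0.63), while CTNNB1, which encodes beta-catenin, went from 271 ± 7.15 to 217 ± 4.45 CPM (−0.32) and the polarity gene PARD6G from 17.5 ± 1.71 to 10.5 ± 0.629 CPM (−0.68). E-cadherin, CDH1, was low in every library, at 4.46, 4.61 and 4.63 CPM with DMSO and 6.56, 4.32 and 5.80 CPM with MYCi975, and its groups overlapped (0.22, adjusted p = 0.167); without MYCi975 replicate 2 it passed (0.365, adjusted p = 0.0319). EPCAM, a surface glycoprotein of epithelium, went from 14.98 ± 1.29 to 17.3 ± 0.474 CPM (0.20, adjusted p = 0.0436). Its call was lost with DESeq2 (adjusted p = 0.109) and without DMSO replicate 1 (0.247). The same held without any 1 of MYCi975 replicates 1, 2 and 3 (adjusted p = 0.0528, 0.0992 and 0.0936).

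**Figure D3:**
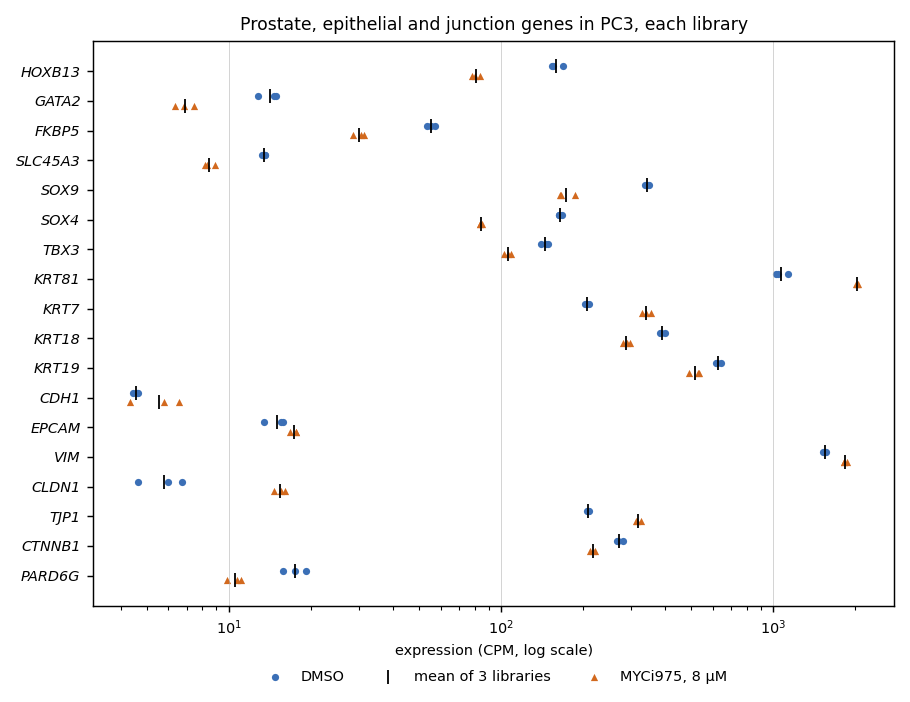
Expression of 18 prostate, epithelial and junction genes in each PC3 library (CPM, log scale), with circles for DMSO, triangles for MYCi975 and a bar at each group mean. HOXB13, GATA2 and SOX9 lie lower with MYCi975, KRT81, CLDN1 and TJP1 higher, and the CDH1 groups overlap.

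Anchors between cell and matrix changed by gene. Of 17 desmosome and hemidesmosome genes 6 rose and 6 fell. ITGA6, the alpha subunit of hemidesmosomes and a laminin receptor, was at 303, 309 and 288 CPM with DMSO and 193, 195 and 194 CPM with MYCi975. ITGA3, the other main laminin receptor subunit, was at 935, 928 and 941 CPM with DMSO and 1944, 1898 and 1975 CPM with MYCi975. The 2 subunits went opposite ways, −0.62 (SE 0.034, adjusted p = 1.50e-30) for ITGA6 and 1.05 (SE 0.024, adjusted p = 1.38e-59) for ITGA3, with no overlap in either. The cytolinker plectin, PLEC, went from 7062 ± 172 to 5146 ± 326 CPM (−0.46), whereas desmoplakin DSP (0.35) and periplakin PPL (0.65) rose. The integrin gene ITGB4, in the same list, rose from 407 ± 6.96 to 509 ± 26.5 CPM (0.32). Dystonin DST, from the basal marker list, rose too (0.52). Of 16 integrins 6 rose and 4 fell, and the collagen receptor ITGA1 (−0.46) and the E-cadherin receptor ITGAE (−0.67) were among the falls.

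Of 35 cadherins and protocadherins 11 rose and 10 fell, with PCDH18, given above, as the largest fall. The giant cadherin FAT1 went from 224 ± 6.35 to 145 ± 3.85 CPM (−0.63), its relative FAT4 from 9.79 ± 0.176 to 15.9 ± 2.03 CPM (0.64), and the planar polarity cadherin CELSR1 from 35.4 ± 2.36 to 67.3 ± 3.66 CPM (0.91). Of 41 immunoglobulin-like and other adhesion molecules 15 rose and 13 fell. ICAM1, which leukocytes bind, was at 29.3, 32.7 and 27.9 CPM with DMSO and 60.6, 59.8 and 59.2 CPM with MYCi975. PVR, a ligand of natural killer cell receptors (0.62), and LGALS3, a galectin (0.65), also rose. CD44, the hyaluronan receptor, went down from 395 ± 3.57 to 344 ± 3.403 CPM (−0.20). Of 19 tetraspanins 9 rose and 4 fell, with CD63 (0.59), TSPAN3 (0.61) and TSPAN31 (0.76) up and TSPAN13 (−0.63) down.

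Basement membrane genes were called in 20 of 23 cases, 14 upward and 6 downward (median 0.29). NTN4, a netrin that binds laminin, was at 66.2, 73.9 and 68.3 CPM with DMSO and 147, 137 and 139 CPM with MYCi975. Its groups did not overlap (1.01, SE 0.045, adjusted p = 2.28e-37), and the laminin chain genes LAMA4 (1.01) and LAMB2 (0.67) also rose. The interstitial matrix list was less one-sided, with 15 rises and 13 falls among 50, and its largest falls were the hyaluronan synthases. HAS3 was at 253, 259 and 254 CPM with DMSO and 111, 118 and 123 CPM with MYCi975. HAS3 (−1.11) and HAS2 (−1.57) fell while the collagen gene COL5A1 (0.75) and the heparan sulphate proteoglycan GPC1 (0.82) rose.

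Both activators of plasminogen rose in these libraries. PLAU, which encodes urokinase, was at 1786, 1786 and 1810.3 CPM with DMSO and 2717, 2597 and 2644 CPM with MYCi975. PLAT, tissue plasminogen activator, was at 172, 173 and 174 CPM with DMSO and 389, 381 and 372 CPM with MYCi975. Neither gene's groups overlapped, and the log2 fold changes were 0.56 for PLAU and 1.13 for PLAT. Of 40 proteases 17 rose and 7 fell, and among the rises were ADAM17, the sheddase of EGF family ligands (0.90), the collagenase MMP1 (1.03, from 4.03 ± 0.995 to 9.13 ± 0.352 CPM) and the carboxypeptidase CPA4 (1.08). Of 21 protease inhibitors 13 rose and 3 fell (median 0.54), with TIMP1, an inhibitor of metalloproteinases, going from 179 ± 5.31 to 374 ± 13.7 CPM (1.06) and the elastase inhibitor PI3 from 17.2 ± 2.41 to 37.2 ± 4.44 CPM (1.07). SERPINB5, or maspin, a serpin lost in many prostate tumours, went the other way, at 138, 139 and 137 CPM with DMSO and 57.1, 60.8 and 55.99 CPM with MYCi975. Its groups lay far apart (−1.24, SE 0.045, adjusted p = 1.04e-43).

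The sequence CACGTG, the E-box to which MYC and MAX bind, was looked for on both strands of the RefSeq promoter windows (GRCh38.p14, 250 bases before to 50 after an annotated start). It is its own reverse complement, and no other motif was searched. It was present in 7.26% of 35116 windows of the RefSeq table and in 67 of the 1013 list members with a window (6.61%; 80.2% of the members tested, 1 window a gene). These sets are unlike, so their shares are not compared. The RefSeq table also holds genes not tested in PC3, and the median share of G and C bases was 58.7% in its windows and 67.7% in those of list members. Windows were found for 79.5% to 80.99% of the members of each direction, and the other members were not searched. The split by direction was not tested and decides nothing, so its shares are given with no comparison. They were 22 of 404 members that rose (5.45%), 24 of 277 that fell (8.66%) and 21 of 332 that did not pass (6.33%). These 3 windows are shown without their last 50 bases because they are of genes that moved in opposite directions, with the E-box in capitals: HAS3, which fell, has 1, and IGF2R and DVL2, which rose, have 3 each. A match describes the letters of the window and does not show that MYC binds there.
HAS3 (chr16:69107290-69107539, plus strand): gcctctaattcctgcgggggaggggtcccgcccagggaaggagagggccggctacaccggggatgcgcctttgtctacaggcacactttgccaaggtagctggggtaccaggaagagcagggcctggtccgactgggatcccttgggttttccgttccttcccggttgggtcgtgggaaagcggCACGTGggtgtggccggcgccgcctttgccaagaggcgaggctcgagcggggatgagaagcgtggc
IGF2R (chr6:159968832-159969081, plus strand): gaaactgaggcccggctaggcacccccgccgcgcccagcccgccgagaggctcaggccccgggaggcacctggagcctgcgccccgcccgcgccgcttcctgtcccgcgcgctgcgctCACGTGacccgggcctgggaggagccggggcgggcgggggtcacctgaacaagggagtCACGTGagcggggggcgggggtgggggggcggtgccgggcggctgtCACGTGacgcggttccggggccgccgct
DVL2 (chr17:7234518-7234767, minus strand): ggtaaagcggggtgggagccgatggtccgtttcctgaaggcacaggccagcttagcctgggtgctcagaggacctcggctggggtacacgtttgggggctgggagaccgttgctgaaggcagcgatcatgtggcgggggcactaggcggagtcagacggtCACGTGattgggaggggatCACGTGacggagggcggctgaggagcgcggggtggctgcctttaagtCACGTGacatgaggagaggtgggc

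Growth factor systems were mixed, with ligands, receptors and inhibitors of 1 family moving apart. In the ERBB list 6 of 15 rose and 2 fell. HBEGF, a ligand of EGFR, was at 40.3, 37.2 and 42.1 CPM with DMSO and 63.96, 69.5 and 69.9 CPM with MYCi975. AREG, another, was at 83.4, 90.6 and 93.6 CPM with DMSO and 57.8, 52.2 and 53.4 CPM with MYCi975. The EGF receptor gene EGFR (0.45) and HBEGF (0.75) rose, as did the inactive rhomboid RHBDF1 that helps ADAM17 mature (0.89), and AREG fell (−0.70). The kinase inhibitor ERRFI1, in the same list, is given above.

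In the fibroblast growth factor family 5 of 10 rose and 2 fell. FGF2 was at 42.1, 45.6 and 46.00 CPM with DMSO and 107, 107 and 107 CPM with MYCi975, whereas FGFBP1, a carrier that releases FGF2 from the matrix, was at 36.98, 37.4 and 34.99 CPM with DMSO and 15.3, 14.03 and 15.3 CPM with MYCi975. The ligand and its carrier moved by 1.25 and −1.24, and the receptor FGFR4 went from 18.7 ± 1.08 to 13.5 ± 0.413 CPM (−0.45). Every one of the 13 tested genes of the insulin and IGF family was called, 9 upward and 4 downward (median 0.42). The adaptor IRS2 went from 6.06 ± 0.552 to 15.9 ± 2.48 CPM (1.26), the receptor inhibitor GRB10 from 139 ± 4.21 to 233 ± 5.41 CPM (0.74), and IGF2R, which carries IGF2 to lysosomes, from 361 ± 1.95 to 593 ± 10.99 CPM (0.72). IGFBP5, which binds IGFs outside the cell, was at 94.4, 104 and 104 CPM with DMSO and 51.3, 52.8 and 50.9 CPM with MYCi975, a fall of 0.95.

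Of 17 Eph receptors and ephrins 8 fell and 3 rose (median −0.22). EPHB3, a receptor of ephrin-B ligands, was at 44.9, 36.5 and 40.1 CPM with DMSO and 13.9, 13.04 and 13.2 CPM with MYCi975. Beside it EPHA5 (−0.67) and EPHA7 (−0.71) fell, and the ligand EFNB3 rose (0.70). Of 29 other receptor tyrosine kinases and ligands 13 rose and 6 fell. VEGFB, a vessel growth factor, went from 68.7 ± 4.05 to 104 ± 3.05 CPM (0.59).

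In the TGF-beta and BMP pathway 24 of 55 rose and 15 fell (median 0.12). The subunits of activin B and activin A went opposite ways. INHBB was at 192, 204 and 204 CPM with DMSO and 72.7, 73.3 and 80.4 CPM with MYCi975. INHBA was at 125, 141 and 137 CPM with DMSO and 328, 308 and 311 CPM with MYCi975 (1.23, SE 0.037, adjusted p = 2.87e-46). The groups did not overlap in either gene, and FST, the activin antagonist follistatin, also rose, from 342 ± 7.25 to 766 ± 9.27 CPM (1.16). ID2, a target of BMP signals, was at 76.9, 78.5 and 75.5 CPM with DMSO and 28.1, 30.8 and 31.7 CPM with MYCi975. INHBB and ID2 lay lower in every MYCi975 library than in any DMSO library, and TGFB1 lay higher (0.49). TGFB3 fell from 12.4 ± 0.520 to 5.58 ± 0.563 CPM (−1.03), and TGFB2 did not pass (−0.04). Beside ID2, ID3 fell (−0.66) and ID1 rose slightly (0.12), with overlap between its groups. The co-repressor TGIF1 went from 50.5 ± 1.60 to 122 ± 2.98 CPM (1.26), and NOG, which traps BMPs, from 23.3 ± 1.16 to 13.7 ± 0.826 CPM (−0.73). The ligand BMP2 and its antagonist NOG thus went opposite ways. BMP3, a BMP family ligand, was at 0.816, 1.36 and 0.304 CPM with DMSO and 6.63, 7.44 and 7.28 CPM with MYCi975, below the mean set for the leading members (2.19, SE 0.17, adjusted p = 9.65e-21). Its fitted change was above that of ERRFI1. INHBA, FST, BMP3, TGFB2, TGFB3, ID1, ID3 and, above, ITGB4, SCG5, STEAP2, STEAP1, SRD5A1 and ZBTB10 were named after their values were seen.

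Of 33 Notch genes 18 rose and 6 fell (median 0.20), but the target gene HES1 was at 74.8, 71.7 and 80.1 CPM with DMSO and 35.3, 38.6 and 35.8 CPM with MYCi975, a fall of 1.03. The ligand DLL4 (1.21), the sugar transferase RFNG (0.95) and the gamma-secretase subunit APH1B (0.86) rose. In the Hedgehog pathway 4 of 16 rose and 3 fell. The 3 falls were in the signal transducer SMO (−0.55), the pathway brake SUFU (−0.46) and the transcription factor GLI3 (−0.97). GLI3 was at 72.5, 69.1 and 70.7 CPM with DMSO and 36.5, 36.4 and 33.9 CPM with MYCi975. SCUBE3, a secreted helper of ligand release, rose (0.92). Of 42 WNT genes 14 rose and 11 fell. The ligand WNT7B (−0.75), the nuclear factor TCF7L2 (−0.71) and its kinase TNIK (−0.57) fell, and DVL2 (0.50) and the secreted inhibitor DKK1 rose, the latter from 655 ± 4.91 to 851 ± 16.4 CPM (0.38).

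**Figure D4:**
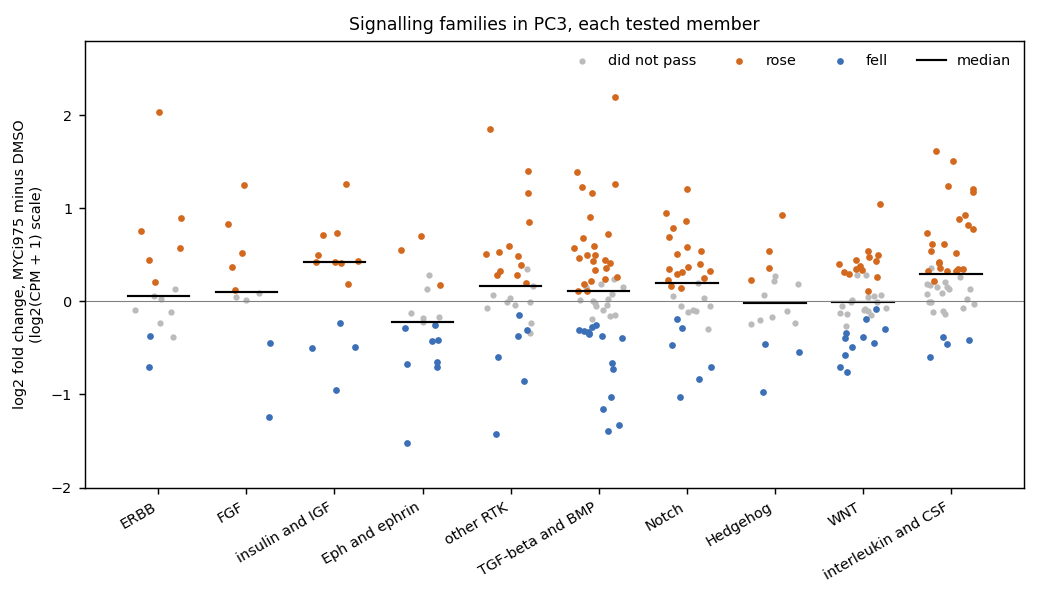
Log2 fold change of each tested member of 10 signalling families in PC3 (MYCi975 minus DMSO), 1 point per gene, orange for genes that rose, blue for genes that fell, grey for those that did not pass, and a bar at the family median. Eph receptors and ephrins have a median of −0.22 and the insulin and IGF family one of 0.42.

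Among interleukins, colony-stimulating factors and their receptors, 23 of 46 rose and 4 fell (median 0.29). The 58.7% called was near the 59.2% of all genes, while rises outnumbered falls. IL1RL1, the receptor for IL-33, was at 119, 125 and 122 CPM with DMSO and 300.3, 283 and 288 CPM with MYCi975. IL18, a cytokine stored as a precursor, was at 16.5, 18.4 and 22.01 CPM with DMSO and 35.7, 34.9 and 36.5 CPM with MYCi975. Both rose with no overlap (1.24 and 0.89), as did CSF1, the growth factor of macrophages (0.82, from 6.46 ± 0.852 to 12.3 ± 2.64 CPM). Of 23 JAK, STAT and SOCS genes 6 rose and 6 fell, with STAT6 (0.60), JAK3 (0.97) and the inhibitor SOCS2 (0.82) up and the phosphatase PTPN1 down (−0.54).

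Inside the cell, 29 of 70 MAP kinase genes rose and 21 fell. MKNK2, which phosphorylates the translation factor eIF4E, was at 107, 106 and 108 CPM with DMSO and 242, 235 and 249.5 CPM with MYCi975 (1.17), and the Ras relative RRAS went from 15.2 ± 1.72 to 30.9 ± 3.52 CPM (0.98). Of 40 PI3K and AKT genes 12 rose and 15 fell. GAB2, a docking protein for PI3K, was at 22.8, 23.5 and 22.7 CPM with DMSO and 61.1, 65.5 and 58.7 CPM with MYCi975 (1.39). The catalytic subunit PIK3CD (1.06) and the lipid phosphatase INPP4B, a brake on the pathway in prostate (1.12), rose, and the regulatory subunit PIK3R3 fell from 22.8 ± 1.07 to 11.1 ± 1.13 CPM (−0.98).

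Regulators of small GTPases and of actin were called in both directions. Of 76 guanine exchange factors and GTPase-activating proteins 30 rose and 17 fell, and the 61.8% called was near the 59.2% of all genes. ARHGEF2, a RhoA activator held on microtubules, was at 49.4, 41.2 and 47.6 CPM with DMSO and 103, 103 and 100.2 CPM with MYCi975. SRGAP1, an inactivator of Cdc42 downstream of ROBO receptors, was at 169.9, 184 and 173 CPM with DMSO and 343, 365 and 343 CPM with MYCi975. ARHGEF2 (1.13) and SRGAP1 (0.995) rose with DLC1, an inactivator of RhoA (1.09), so both activators and inactivators were among the rises. ARHGAP11A (−0.89) and CIT (−0.84), both known for their part in cell division, fell. Of 87 actin, myosin and focal adhesion genes 42 rose and 26 fell. The scaffold NEDD9 went from 9.29 ± 0.531 to 4.12 ± 0.726 CPM (−1.01), and LIMS2, a partner of integrin-linked kinase, from 6.13 ± 1.41 to 12.3 ± 1.08 CPM (0.92).

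G protein-coupled receptors were among the lists that leaned downward. Of 18 adhesion and class C receptors 10 fell and 6 rose (median −0.32), and of 44 class A receptors 19 fell and 12 rose (median −0.16). F2RL1, a receptor that trypsin-like proteases switch on, was at 172, 162 and 160.4 CPM with DMSO and 74.5, 71.6 and 73.2 CPM with MYCi975. OXTR, the oxytocin receptor, was at 32.02, 33.1 and 34.6 CPM with DMSO and 84.4, 77.4 and 74.6 CPM with MYCi975. F2RL1 (−1.16), GPRC5C (−0.64) and ADGRA3 (−0.85) fell, and OXTR (1.22) and GPRC5B (0.58) rose. Downstream, 18 of 61 G protein and cyclic nucleotide genes rose and 17 fell. Both PDE3 phosphodiesterases, which break down cyclic AMP, fell: PDE3A was at 86.5, 88.01 and 93.2 CPM with DMSO and 42.8, 40.9 and 39.7 CPM with MYCi975 (−1.10) and PDE3B went from 13.7 ± 1.32 to 5.68 ± 0.572 CPM (−1.14). PDE10A, which breaks down cyclic AMP and cyclic GMP, rose from 8.96 ± 1.48 to 18.7 ± 2.28 CPM (0.99).

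Of 34 semaphorin, plexin, slit and netrin genes 17 rose and 7 fell (median 0.23). SEMA3F, a repellent ligand for neuropilin-2, was at 48.98, 46.8 and 51.2 CPM with DMSO and 116, 117 and 126 CPM with MYCi975. ROBO1, a slit receptor, was at 71.3, 68.99 and 72.9 CPM with DMSO and 36.8, 39.2 and 38.7 CPM with MYCi975. SEMA3F (1.27), ROBO3 (1.03) and ROBO4 (1.002) rose and ROBO1 fell (−0.88), so that the roundabout receptors named here split in direction.

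Mucosal genes and the S100 and annexin genes leaned upward. Of 16 mucin and mucosal genes 9 rose and 2 fell (median 0.36). CD55, a surface shield against complement, was at 318, 323 and 311 CPM with DMSO and 655, 649 and 634 CPM with MYCi975. AGR2, a disulphide isomerase needed to fold mucins, was at 17.2, 13.2 and 17.2 CPM with DMSO and 6.26, 9.21 and 7.07 CPM with MYCi975. CD55 rose (1.02), as did the gel-forming mucin MUC5B (0.70) and the trefoil peptide TFF2 (0.59), and AGR2 fell (−0.99). Of 19 S100 proteins and annexins 11 rose and 3 fell (median 0.33), among them ANXA3 (0.91), ANXA4 (0.73) and S100A11 (0.45). Of 21 peptide hormone genes 10 rose and 4 fell, but their median was near 0 (−0.02). The granule protein VGF was up (0.62) and neuromedin U, NMU, down (−0.75).

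Of 37 nuclear receptors and coregulators 15 rose and 11 fell. NCOA3, a steroid receptor coactivator, was at 132, 134 and 127 CPM with DMSO and 317, 324 and 309.6 CPM with MYCi975. NR2F2 was at 171, 179 and 180.0 CPM with DMSO and 67.6, 69.6 and 74.9 CPM with MYCi975. NCOA3 (1.27) rose with PPARA, and both COUP-TF genes fell, NR2F1 from 74.8 ± 2.79 to 38.8 ± 1.84 CPM (−0.93). Of 25 prostaglandin and lipid mediator enzymes 8 rose and 8 fell. The lipase MGLL (0.54) and the sphingosine phosphate lyase SGPL1 (0.53) rose, and PTGES3, a prostaglandin synthase that is also the HSP90 co-chaperone p23, fell from 687 ± 11.1 to 474 ± 5.15 CPM (−0.53). Of 14 bone and invasion factors 5 rose and 3 fell. PTHLH, the peptide by which tumours stir bone resorption, was at 146, 141 and 136 CPM with DMSO and 112, 119.7 and 122 CPM with MYCi975 (−0.26), and DKK1, TGFB1 and BMP2, given above, rose.

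The last comparison asked whether the leading PC3 members answered MYCi975 to the same degree in P493-6. Of the 24 leading members 9 were in the tables of both lines, and in 11240 shared genes the difference between the lines was called for 36.3%. All 9 differed between the lines, but they were picked for the size of their change in these same PC3 libraries, and the dose was 8 µM in PC3 and 6 µM in P493-6, so dose and line cannot be told apart. ADM2, PPARA, RPS6KA2 and PODXL rose in P493-6 as well, by 1.25, 0.66, 0.50 and 0.39 on the log2 scale, against 2.50, 1.66, 1.63 and 1.56 in PC3. PDGFA, MAP2K6, ID2, NR2F2 and GPER1 did not pass in P493-6, with log2 fold changes of 0.06, −0.21, −0.03, −0.16 and −0.04. GPER1, for example, was at 147 ± 5.04 CPM in P493-6 with DMSO and 143 ± 1.47 CPM with MYCi975.

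**Figure D5:**
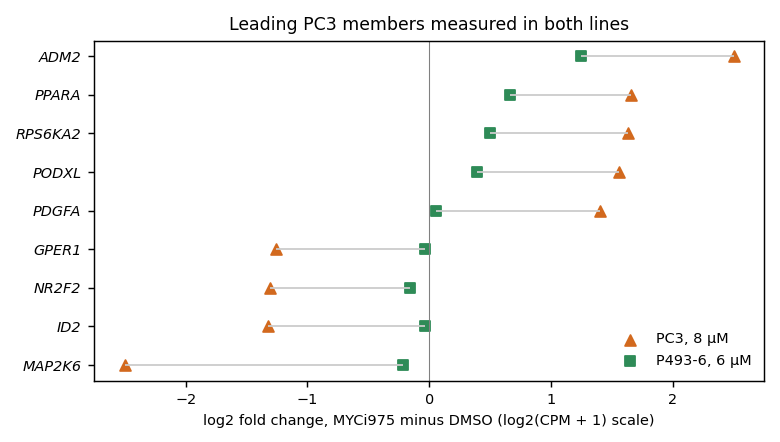
Log2 fold change (MYCi975 minus DMSO) of the 9 leading PC3 members measured in both lines, triangles for PC3 at 8 µM and squares for P493-6 at 6 µM, 3 libraries per group. Each PC3 value lies further from 0 than its P493-6 value, as with MAP2K6 at −2.50 and −0.21.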

How the data were processed

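RNA of 6 PC3 and 6 P493-6 libraries was captured for exon sequence with the strand kept (TruSeq RNA Access), per the labels' protocols. The submitters' processing notes name STAR, HTSeq, edgeR and the build hg38, and the versions and options are not given in the sources used. The authors deposited CPM, and every PC3 value was a whole multiple of 1 step, so reads were recovered for 100% of values within 0.001. Listed genes exceed 1 CPM in at least 2 libraries, as tested on the values, so genes lower than that are absent from all counts. Of the genes with no symbol in the PC3 table, 102 took a name from the supplied table of gene IDs.

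limma 3.58.1 (R 4.3.3, trend and robust) was fitted to log2(CPM + 1) of all 13751 genes without a filter and tested on simulated counts. The fit of both lines had line, treatment and their interaction over 11240 shared genes. Depth leaves genes of a few CPM imprecise. Alternatives were edgeR 4.0.16 and DESeq2 1.42.0 on recovered reads, pseudocounts of 0.1 and 5, a mean CPM filter of 5, TMM scaling, median centring, limma without trend and robust, a replicate block and leaving out each library. The recovered-read tests called 4041 rises and 4019 falls (edgeR) and 3437 and 3529 (DESeq2). Replicates differed by more than counting (chi-square per gene 2.40 to 3.85).

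Members and lists were chosen with earlier results of these data known. Named genes are list members: the 12 largest rises and 12 largest falls with a mean of at least 5 CPM, an adjusted p below 0.05 and groups that do not overlap, up to 4 such genes per list (or the 2 with the smallest p), and a set of anchor genes. Promoter windows are RefSeq's (GRCh38.p14). Some genes and 1 list that the rule selects are not reported here.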

Additional observations from a re-analysis of the deposited data

Results flagged for a closer look

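The change with MYCi975 differed between PC3 and P493-6 for 9 genes, by the interaction of line and treatment in limma (Benjamini-Hochberg adjusted over 11240 genes, of which 36.3% were called). The doses differed, so line and dose cannot be told apart, and the genes were picked for their change in PC3. As the PC3 minus the P493-6 log2 fold change, the difference was 1.26 for ADM2 (adjusted p = 6.14e-05), 1.0 for PPARA (adjusted p = 2.53e-07), 1.13 for RPS6KA2 (adjusted p = 2.06e-05), 1.16 for PODXL (adjusted p = 0.000331) and 1.34 for PDGFA (adjusted p = 1.31e-06). For the genes that fell in PC3 it was −2.29 for MAP2K6 (adjusted p = 1.89e-12), −1.29 for ID2 (adjusted p = 2.09e-10), −1.15 for NR2F2 (adjusted p = 8.27e-14) and −1.22 for GPER1 (adjusted p = 8.79e-06).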

How the results depend on the processing

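Of 179 of the named genes, 173 kept their direction and their side of the threshold under each of 15 alternatives that could be fitted. Of the 6 exceptions, among them CDH1, EPCAM, KRT8, FRS2 and REST, none changed direction. Of the 42 lists, 35 kept their net direction and a count within 1.5 times. Leaving out each library in turn gave 3653 to 3812 rises and 3788 to 3945 falls over all genes, against 3993 and 4144. With a mean CPM filter of 5, which removes members from the test, 1 member was called in the basal keratin list (4 without it), 4 in the fibroblast growth factor family (7 without it), 8 in adhesion and class C receptors (16 without it) and 7 in mucins (11 without it). In 3 lists whose rises and falls were close in number, the balance turned. For cadherins and protocadherins falls outnumbered rises with DESeq2 (14 called), with the filter (12 called) and with limma without trend and robust (21 called), and without DMSO replicate 1 or MYCi975 replicate 3, within a range of 16 to 19 called over the libraries left out. For other adhesion molecules this held with the filter (22 called) and without DMSO replicate 3 (range 24 to 26). For the Hedgehog pathway it held with limma without trend and robust (7 called) and without MYCi975 replicate 1 or 3 (range 5 to 8). The cause of these turns was not tested. All 9 differences between the lines kept their direction and call under each alternative run. Replicate numbers did not pair the samples (same-numbered deviations correlated at −0.02, 0.06 and 0.05 over genes), and a fit with the replicate number as a block called 4041 rises and 4179 falls. Depth limits genes near 1 CPM, for which a library holds about 13 to 16 reads.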
